A study of Caenorhabditis elegans with 93 samples.

Results

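The cuticle collagen genes of the nematode Caenorhabditis elegans were followed as mRNA, accessible chromatin and 22G-RNAs through embryos of 3 mutation accumulation lineages. The genes were picked by their names, as every gene of the RNA-seq table called col- with a number, together with 13 collagen genes named for a body shape (rol-6, sqt-1, sqt-2, sqt-3, bli-1, bli-2, dpy-2, dpy-3, dpy-7, dpy-8, dpy-10, dpy-13 and dpy-17). This gave 169 of 27790 genes, 156 of them col- genes. A test needed a mean normalized read count of at least 10 over the 31 RNA-seq libraries, which 130 of the 169 genes and 16714 of all genes had. The other 39 collagen genes were too low to be tested. Values for 22G-RNAs were given for 17 of the genes, of 8479 genes in all. By ATAC-seq, 213 of 31618 regulatory elements had a collagen gene as the gene with the nearest annotated start, for 122 collagen genes.

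The worms were untreated animals of the wild-type laboratory strain N2. Lineages A, B and C were each passed through a bottleneck at every generation for 20 generations, and embryos were taken by bleaching adults in alternate generations. The later samples were generations 2 to 20, with 10 libraries per assay in lineage A and 9 each in lineages B and C, while generation 0 was 1 library per lineage before the bottlenecks, 3 in all. Each lineage is 1 line and each library is 1 pool of embryos, so a p-value measures the spread between such pools only, and the libraries of a lineage share their ancestors.

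The cuticle is the worm's outer coat. Collagens make up most of it, and the epidermis secretes the first cuticle late in embryogenesis, before hatching, and a new one at each moult. A collagen chain is hydroxylated and folded in the endoplasmic reticulum, cut by proteases such as BLI-4 and DPY-31 and cross-linked outside the cell. The collagens DPY-2, DPY-3, DPY-7, DPY-8 and DPY-10 lie in the ring-shaped furrows of the cuticle, BLI-1 and BLI-2 form the struts of the adult cuticle, and mutants of the sqt and rol genes are short or roll about their long axis. 22G-RNAs are small antisense RNAs made by RNA-dependent RNA polymerases on mRNA templates, and with Argonaute proteins many of them silence the gene they match.

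RNA-seq libraries held 42039288 to 48158015 reads in later generations and 43661492 to 49318096 reads in generation 0, small RNA-seq libraries 106897 to 1504610 in later generations and 1008367 to 1611500 in generation 0, and ATAC-seq libraries 2995631 to 12251653 in later generations and 7625441 to 9472742 in generation 0. The shallowest small RNA library was lineage A generation 4. All 11 transcripts of a list of maternal mRNAs of the early embryo (such as pos-1 and mex-5) were lower in later generations than in generation 0, with summed normalized counts of 27280 to 62252 (median 36886) in later generations against 52558, 70334 and 94881 in generation 0. Of 7 body wall muscle markers 6 were higher, with sums of 161963 to 318802 (median 254560) in later generations against 179020, 166732 and 149420 in generation 0. Of 10 epidermal transcription factors tested 2 were higher (grh-1 and bed-3) and 2 lower (elt-1 and lin-26), and no gene of these 3 lists was at 0 in any library. In whole embryos more cells of a type and more RNA per cell cannot be told apart. Of markers of adults, 30 of 31 major sperm protein genes were at 0 in at least 1 library while msp-51 had 277 to 688 counts in later generations and 395, 388 and 513 in generation 0. Of 6 yolk protein genes tested 1 was lower and 1 higher. The gene vit-1 had 1838 to 2867 counts in later generations against 2592, 3475 and 2636 in generation 0, and was lower by limma (adjusted p = 0.0279). The gene vit-6 had 14.6 to 46.4 counts in later generations against 21.2, 21.3 and 8.74 in generation 0, and was higher (adjusted p = 0.0491 by limma). Col-19, an adult collagen, had a mean normalized count of 2.46.

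The collagen genes took 1.30% to 2.55% (median 1.79%) of all normalized counts in later generations, against 1.41%, 1.14% and 1.36% in generation 0. Levels between genes are compared per kilobase of gene span. By that measure dpy-17 (114915 normalized counts per kilobase) and sqt-3 (111545) were the highest, followed by col-165 (48996), col-74 (34584) and col-117 (20258), while the median of the 169 genes was 37.5. SQT-3 is cut by the protease DPY-31, and genetic work ties DPY-17 to the same process. These 2 genes held 33.1% to 45.2% of the collagen counts in later libraries and 43.3%, 41.4% and 41.1% in generation 0. A large share of the collagen counts of these embryos was therefore that of 2 genes.

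Of the 5 furrow collagens 4 were abundant, dpy-10 at 9919 normalized counts per kilobase, dpy-3 at 9595, dpy-7 at 9213 and dpy-2 at 7766. The fifth, dpy-8, was at 28.3 per kilobase. The remaining shape genes were low in embryos: sqt-2 was at 81.1, dpy-13 at 35.9, bli-1 at 25.3, bli-2 at 19.8, rol-6 at 18.4 and sqt-1 at 1.22 per kilobase. Sqt-1 mRNA was at 0 in 15 libraries and was not tested. In all, 41 collagen genes averaged at least 1000 normalized counts.

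Counts were made over whole gene spans without regard to strand, so genes that overlap share reads. The spans of 91 of the 169 collagen genes overlapped another gene of the table, and 12 overlapped another collagen gene. The ratio of col-10 to col-144 was 1.0001 to 1.0007 over the libraries, and the table gave col-126 and col-127 identical counts. Such pairs are 1 measurement each. The rows named col-3 and col-117 lie at each other's annotated places, and their ratio stayed between 0.944 and 1.01 over the 31 libraries. Sqt-3, dpy-8, dpy-10, bli-1, bli-2, col-74 and col-97 also overlap a gene outside the family, and the share of the reads that is theirs was not tested.

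The first comparison asked whether collagen mRNA in the accumulation lineages differed from that of the embryos they began with. Collagen mRNAs that changed were nearly all higher in later generations: 36 of the 130 tested genes were higher and 3 were lower than in generation 0 (limma on log2(normalized count + 1), adjusted p under 0.05 over all 16714 genes). Over all genes 17.7% were higher and 21.9% were lower. The median log2 difference, later minus generation 0, was 0.32 over the 130 collagen genes and 0.02 over all genes. Of the 41 collagen genes with a mean of at least 1000, 39 had a positive difference, 17 were called higher and 0 lower by limma. Of all 6903 genes at that level 2727 had a positive difference. The 55 tested collagen genes that overlap no other gene had a median of 0.44, with 19 higher and 1 lower.

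**Figure D1:**
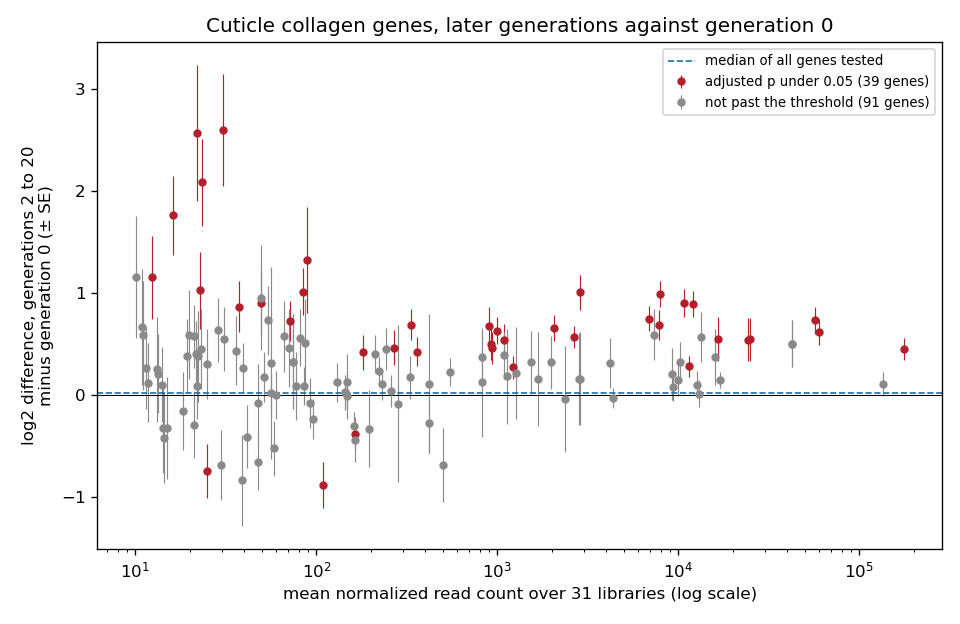
Log2 difference in mRNA between generations 2 to 20 and generation 0 (vertical axis, with the standard error) against the mean normalized read count over 31 libraries (horizontal axis, log scale) for the 130 cuticle collagen genes tested. Red points passed the threshold of 0.05 (39 genes), grey points did not (91 genes), and the dashed line is the median of all genes, at 0.02. Above a mean of 1000 no red point lies below 0.

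Sqt-3 (chromosome V, 12352745 to 12354320, plus strand, in WBcel235) had 149537 to 261660 normalized counts (median 178263) in later generations, against 138391, 123182 and 131181 in generation 0. All 28 later libraries were above all 3 of generation 0, a log2 difference of 0.45 ± 0.11 (SE, adjusted p = 0.00101 by limma). It was the sole shape-named collagen gene that passed. Col-109 (chromosome IV, 1817392 to 1820253, minus strand) had 5595 to 11590 counts (median 8446) in later generations, against 4437, 3604 and 4294 in generation 0, a log2 difference of 0.99 ± 0.13 (SE). Col-97 had 7292 to 15516 counts (median 11298) in later generations, against 6173, 5075 and 6484 in generation 0, a difference of 0.91 ± 0.14 (SE).

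Groups that did not overlap were found for 10 of the 130 genes, all of them higher in each of the 28 later libraries: col-7, col-14, col-34, col-48, col-97, col-104, col-109, col-115, col-152 and sqt-3. No collagen gene was lower in each of them. Over all genes 3.21% were higher in every later library and 4.45% were lower. Col-74 and col-165, both among the 5 highest per kilobase, were above every generation 0 library in 27 of 28 later libraries, with log2 differences of 0.73 ± 0.13 and 0.62 ± 0.13 (SE). Col-117, the other of these col- genes, passed with 0.55 ± 0.21 (SE, adjusted p = 0.0412 by limma).

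The largest differences belonged to collagen genes of low level. Col-152 had 9.55 to 114 normalized counts (median 24.2) in later generations, against 9.23, 1.93 and 2.19 in generation 0, and rose by 2.60 ± 0.55 on the log2 scale (SE, adjusted p = 0.000403 by limma). In each lineage its highest library was that of generation 2, at 114, 92.1 and 63 in lineages A, B and C. Col-78 had 0 to 42.2 counts (median 25.1) in later generations, against 0, 3.87 and 7.65 in generation 0, and rose by 2.57 ± 0.66. Col-138 rose by 2.09 ± 0.42, col-7, a collagen described in the adult, by 1.76 ± 0.39 and col-42 by 1.33 ± 0.52 (SE). At such counts a value rests on few reads, and the pseudocount of 1 lowers these differences.

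The 3 genes that fell were col-72, col-176 and col-86. Col-72 had 63.8 to 161 counts (median 97.3) in later generations, against 144.1, 144.1 and 283 in generation 0, a log2 difference of -0.88 ± 0.23 (SE, adjusted p = 0.00262 by limma). Without the generation 0 library of lineage C no collagen gene was called lower. Col-176 had a difference of -0.74 ± 0.27 and col-86 of -0.38 ± 0.15 (SE). Col-72 overlaps clec-126 and W09G10.9, and col-86 overlaps rict-1.

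The furrow collagens did not pass the test, with log2 differences of 0.15 ± 0.08 for dpy-10, 0.15 ± 0.16 for dpy-3, 0.10 ± 0.13 for dpy-7, 0.01 ± 0.13 for dpy-2 and -0.08 ± 0.38 for dpy-8 (SE). Dpy-10 had 14893 to 19850 counts (median 17373) in later generations, against 17830, 13989 and 14784 in generation 0, and dpy-7 had 9676 to 20232 (median 12489) in later generations, against 13091, 9713 and 12777 in generation 0. In both genes the groups overlapped. Without the generation 0 library of lineage A dpy-10 passed, at 0.28 (adjusted p = 0.0146 by limma), and over the other alternatives its adjusted p was 0.0955 to 0.639. Dpy-17 had 108689 to 183041 counts (median 131805) in later generations, against 136925, 102387 and 136492 in generation 0, a log2 difference of 0.11 ± 0.12 (SE). For sqt-2, rol-6, dpy-13, bli-1 and bli-2 the differences were -0.08 ± 0.25, 0.09 ± 0.32, 0.27 ± 0.25, 0.09 ± 0.18 and -0.29 ± 0.33 (SE), none past the threshold.

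Genes that work on or beside the collagens were read from lists. Of 11 genes of collagen processing and cross-linking 4 were higher and none lower: phy-3, a prolyl hydroxylase subunit (log2 difference 0.52 ± 0.15), bli-3, a dual oxidase that cross-links the cuticle (0.38 ± 0.14), its partner tsp-15 (0.35 ± 0.11) and the procollagen protease dpy-31 (0.20 ± 0.07, SE each). Dpy-18, a second prolyl hydroxylase subunit, and bli-4 did not pass, at 0.05 ± 0.12 and 0.05 ± 0.09. Of 14 genes of the precuticle and the cuticlins 4 were higher, and these were 4 of the 5 cuticlins: cut-3, cut-4, cut-5 and cut-6, by 0.55 ± 0.12, 0.57 ± 0.18, 0.51 ± 0.10 and 0.37 ± 0.09 on the log2 scale. The precuticle gene egg-6 was lower by limma, at -0.33 ± 0.08, and noah-1 and noah-2 had 0.11 ± 0.12 and 0.04 ± 0.10. Of the 3 basement membrane collagens emb-9 and let-2 were higher, by 0.44 ± 0.11 and 0.43 ± 0.13 (SE). The third, cle-1, did not pass, at 0.33 ± 0.15 (SE, adjusted p = 0.0740 by limma). These genes moved beside the maternal and muscle markers given above, and the part of embryo stage in the collagen differences was not tested.

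The calls leaned on the 3 libraries of generation 0. Leaving out the lineage A, B or C library of generation 0 gave 30, 19 and 27 collagen genes called. Calls over all genes fell as well, to 6324, 4461 and 3221, against 6626 with all 3 libraries. Of the 39 collagen genes 13 were called under each alternative tried, one of which, a minimum mean of 50, leaves low genes untested. Col-7, col-138 and col-152 were called under all 13 alternatives that tested them. Col-117, col-42 and col-176 each missed the threshold without any 1 of the generation 0 libraries, with adjusted p of 0.0950 to 0.160, 0.0709 to 0.170 and 0.0594 to 0.153 by limma. Col-78 missed it without that of lineage A (0.0974), col-86 without that of lineage B (0.162) or C (0.248) and col-72 without that of lineage C (0.117).

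Within the later generations the question was whether any collagen mRNA drifted with generation. Col-180 did (chromosome X, 11711378 to 11712280, minus strand, overlapping no other gene of the table). It was 1 of 4 genes, or 0.0239% of the 16714 tested, with a slope past the threshold, and the only collagen gene. Its log2 slope was -0.86 ± 0.12 per 10 generations (SE, adjusted p = 0.00157 by limma). The slope within each lineage was -0.95 in A, -0.79 in B and -0.82 in C. The 3 lineages were kept in parallel, so libraries of 1 generation share their time of handling, and an effect of that time cannot be told apart from one of generation.

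Col-180 mRNA was lower from generation 10 on in each lineage. In generations 10 to 20 lineage A had 213 to 461 normalized counts, lineage B 268 to 332 and lineage C 282 to 450, against 607 to 915, 499 to 714 and 495 to 1378 in generations 0 to 8. All 17 libraries of generations 10 to 20, with a median of 314, were below all 14 libraries of generations 0 to 8, with a median of 645. This division was chosen after the values were seen. Col-180 was the only gene of the 16714 with that order, 0.00598% of them, and 0 genes had the opposite order. Since the division was picked from the values of col-180, that rank cannot show how rare such a separation is. Among the early libraries lineage C generation 2 stood highest, at 1378, and without it the slope was -0.77 (adjusted p = 0.00577 by limma). Without all of generation 2 the slope was -0.78 and missed the threshold (adjusted p = 0.0764), as it did without lineage A (-0.81, adjusted p = 0.210) or lineage B (-0.88, adjusted p = 0.165).

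The accessible element 132 bases before the start of col-180 had a log2 slope of -0.15 ± 0.07 per 10 generations (SE), which did not pass (adjusted p = 0.880 by limma). It had 128 to 231 normalized ATAC-seq counts (median 175) in later generations, against 172, 176 and 168 in generation 0. The 22G-RNAs of col-180 had 0 to 10.996 counts, too few to be tested.

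**Figure D2:**
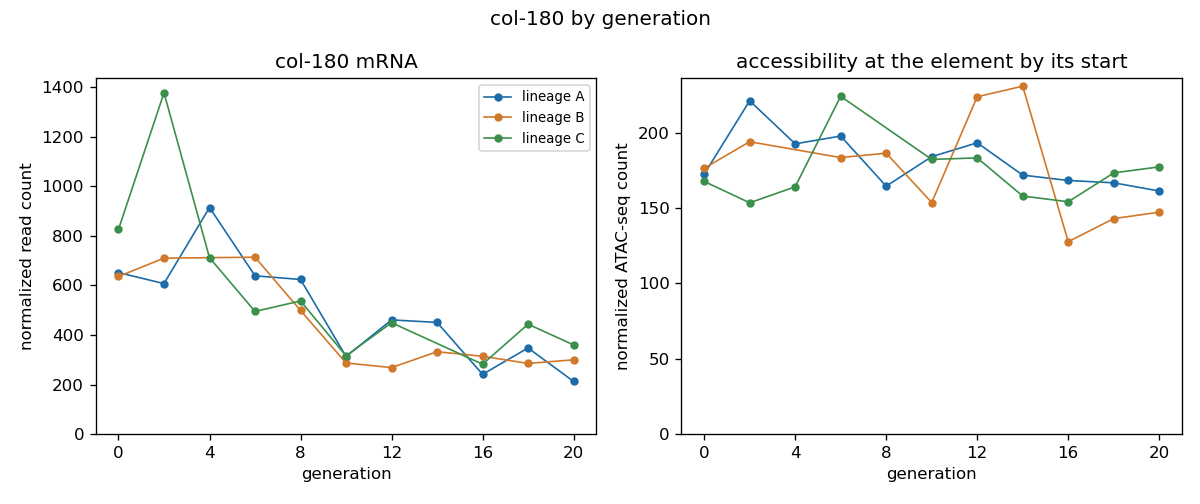
Normalized RNA-seq counts of col-180 (left) and normalized ATAC-seq counts of the element 132 bases before its start (right) against generation, with 1 point per library and 1 line per lineage. The mRNA of all 17 libraries of generations 10 to 20 lies at or below 461, and that of all 14 libraries of generations 0 to 8 at or above 495.

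Of the other 129 collagen genes tested none had a slope past the threshold, and 17 of the 130 had an unadjusted p under 0.05, as did 2661 of all 16714 genes. Among the collagen genes edgeR on the recovered reads called col-180 alone and DESeq2 called col-156 as well. Over all genes edgeR called 9 and DESeq2 146. The slope of col-156 by limma was -0.85 ± 0.19 per 10 generations (SE, adjusted p = 0.105). The 12 shape-named genes tested had slopes of -0.17 to 0.42, none past the threshold. That of sqt-3 was -0.0016 ± 0.059 and that of dpy-17 was -0.0091 ± 0.064 (SE).

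No collagen mRNA passed the test between the lineages over generations 2 to 20. Of the 130 genes 0 passed the F-test of limma, 11 had an unadjusted p under 0.05 (769 of all 16714 genes), edgeR called 0 and DESeq2 called 1, col-38. Over all genes 6, or 0.0359%, passed by limma, and DESeq2 called 8. Col-38 (chromosome II, 8568035 to 8569088, minus strand) had 12.4 to 30.5 counts (median 18.1) in lineage A, 27.9 to 66.5 (median 30.9) in lineage B and 12.6 to 85.0 (median 56.6) in lineage C, with 15.7, 24.2 and 36.1 in generation 0, and an adjusted p of 0.216 by limma.

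The abundant collagen genes varied more from library to library than other genes of their level. The SD of log2(normalized count + 1) over the 31 libraries had a median of 0.38 over the 41 collagen genes with a mean of at least 1000, from 0.12 for dpy-10 to 0.85 for col-130. Over the 6862 other genes of that level the median was 0.23. Col-130 had 506 to 6833 counts (median 2281) in later generations, against 1966, 1894 and 2402 in generation 0. Its highest libraries were lineage A generation 4 (6833) and lineage C generation 4 (5267), and its lowest were generation 2 of lineages B (506), A (640) and C (858).

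Many collagen genes varied together, and most of the abundant ones did. The log2 level of each of the 130 genes was set against the log2 of the summed level of the other collagen genes over the 31 libraries. The median Pearson r was 0.48, 61 genes had an r over 0.5 and 24 had a negative r. Of the 41 genes averaging at least 1000 counts 33 were over 0.5. The median r of the 16584 genes outside the family with the summed collagen level was -0.02, and 11.1% of them were over 0.5. The highest among the collagen genes were col-107 (r = 0.93, Spearman rho = 0.93), col-165 (0.92 and 0.92) and col-117 (0.92 and 0.91), and the lowest was col-86 (r = -0.46). Within lineages A, B and C the median r was 0.61, 0.42 and 0.30. Libraries of a lineage share ancestors and all genes of a library share its scaling, so these correlations are descriptions. Without the 2 libraries whose summed level lay farthest from the median, lineage B generation 0 and lineage A generation 4, the median r was 0.39.

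The 4 abundant furrow collagens followed the summed collagen level only weakly. They correlated with each other at r = 0.56 to 0.94, and their sum with that of the other collagen genes at r = 0.25 (rho = 0.13), or 0.14 without the same 2 libraries. The low furrow collagen dpy-8 did not share their course, at r = -0.28 with the sum of the other furrow collagens. Col-121, col-111, col-76 and dpy-17 followed the furrow collagens, at r = 0.92, 0.87, 0.85 and 0.84. Among genes averaging at least 1000 counts, col-130 (r = -0.41), col-94 (-0.38) and col-12 (-0.35) ran against them. Among lower genes col-119 (-0.69), bli-1 (-0.52), col-159 (-0.47), col-160 (-0.47) and col-123 (-0.43) did so more strongly. The spans of col-159 and col-160 overlap and their levels correlated at r = 0.99, so they are not separate measurements. Lineage C generation 2 had 22088 counts of dpy-2, the highest of the 31 libraries, and 858 of col-130. Its summed collagen level was also high, at 983210 against a median of 809121 over the later libraries. Its furrow collagens summed to 80691, again the highest, and the r values of this paragraph were not tested without that library. In lineage A generation 4 the furrow collagens summed to 54198, against a median of 52326 over the later libraries, while col-130, col-117 and col-107 had their highest values. Sqt-3 belonged to both courses, at r = 0.77 with the other collagen genes and 0.59 with the furrow collagens.

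**Figure D3:**
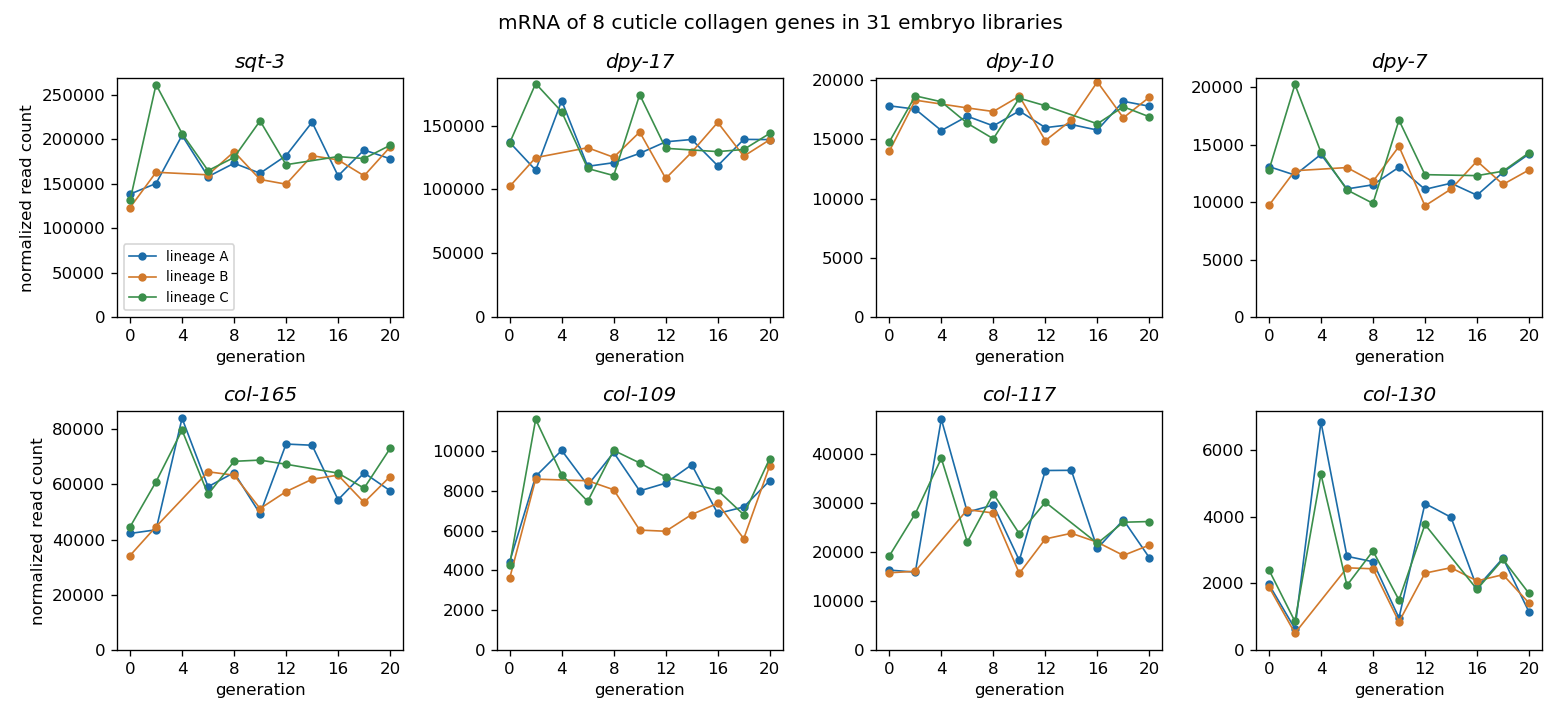
Normalized RNA-seq counts of 8 cuticle collagen genes against generation, with 1 point per library and 1 line per lineage. Dpy-7 peaked at 20232 in lineage C generation 2, where col-130 was at 858, and col-130 peaked at 6833 in lineage A generation 4. Col-109 and sqt-3 lay lowest in generation 0.

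**Figure D4:**
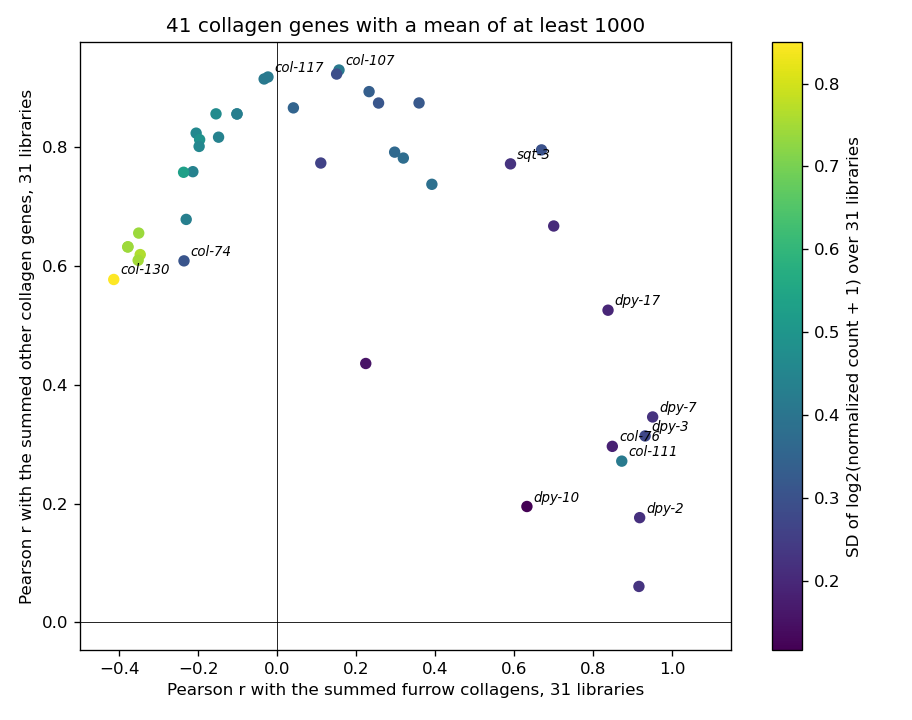
Each point is 1 of the 41 cuticle collagen genes whose normalized count averaged at least 1000, placed by its Pearson r over 31 libraries with the summed furrow collagens without itself (horizontal axis) and with the summed other collagen genes (vertical axis), and coloured by the SD of its log2 level. Col-130 lies at -0.41 and 0.58, and dpy-2 lies at 0.92 and 0.18.

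Among the lists, the summed intestine markers correlated with the summed collagen level at r = 0.90 (rho = 0.84, and 0.86 without the 2 libraries) and neuron markers at 0.83 (rho = 0.80, and 0.75). The intestine sum was mostly that of act-5 and ifb-2, which averaged 26730 and 15330 of its 44990 counts in later generations, and while these were higher than in generation 0, elt-7, a transcription factor of the intestine, was lower by limma (log2 difference -0.33 ± 0.10, SE) and elt-2 had -0.12 ± 0.10. Body wall muscle markers gave 0.52 (rho = 0.49) but 0.28 without generation 0, and maternal transcripts -0.48 (rho = -0.46) but -0.19 without it. The precuticle and cuticlin list gave -0.03 (rho = -0.10), and -0.36 without generation 0. Epidermal transcription factors gave -0.05 (rho = 0.02), and 0.24 without the 2 outlying libraries. The collagen processing and cross-linking list gave 0.27 with the collagen sum and 0.74 with the furrow collagens. Lineage C generation 2 had the highest sum of both that list and the furrow collagens, at 326402 and 80691. The medians over the later libraries were 194895 and 52326, and the r without that library was not tested. One gene of the list, pdi-2, averaged 159348 of its 200410 counts in later generations. Among the other lists pharynx muscle gave 0.19, basement membrane collagens 0.49, major sperm proteins 0.64, yolk proteins -0.45 (-0.08 without the 2 outlying libraries), the adult collagens -0.13 and the dauer collagens, of which only col-2 was in the table, 0.12.

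The 10 genes outside the family with the highest r were mlc-3 (0.96), F41F3.3 (0.94), act-5 (0.94), K03H6.5 (0.93), C34H4.5 (0.93), mup-2 (0.93), C02E7.6 (0.93), mlc-1 (0.92), mec-7 (0.92) and C16B8.3 (0.91). Mlc-1, mlc-3 and mup-2 encode the myosin light chains and the troponin T of muscle, act-5 the actin of intestinal microvilli, and mec-7 a tubulin of touch receptor neurons. K03H6.5 and C34H4.5 overlap col-107 and share its reads. Without the 2 outlying libraries the 10 values lay between 0.875 and 0.936.

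22G-RNAs were few on collagen genes, and for 2 of them they differed between the lineages. Of the 17 collagen genes with 22G-RNA values 8 had a mean of at least 10 and were tested. Col-71 had the most, with 403 to 1921 normalized counts (median 804) in later generations, against 1071, 1152 and 640 in generation 0, and col-111 was next. The next 6 were col-45, col-38, col-60, col-157, col-97 and col-154, with means of 66.2, 56.2, 50.9, 49.6, 45.3 and 15.9. Dpy-10, whose mRNA was among the highest, had a mean of 8.52 22G-RNA counts and col-187 had 7.22.

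Col-111 (chromosome IV, 4655791 to 4657974, minus strand) had 140 to 296 22G-RNA counts (median 225) in lineage C, 463 to 753 (median 570) in lineage B and 304 to 674 (median 477) in lineage A, with 384, 318 and 296 in generation 0 of lineages A, B and C. Every later library of lineage C was below every later library of A and B. The log2 difference was -1.16 ± 0.14 for C minus A and -1.48 ± 0.15 for C minus B (SE, adjusted p = 4.81e-07 and 5.80e-09 by limma). B minus A was 0.32 ± 0.14 and did not pass (adjusted p = 0.491).

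The mRNA of col-111 had 824 to 2227 counts (median 1007) in lineage C, 757 to 1449 (median 972) in lineage B and 680 to 1520 (median 978) in lineage A. Its lineages overlapped, with an adjusted p of 0.909 for the F-test. Over the 31 libraries the r of its mRNA with its 22G-RNAs was -0.26 (rho = -0.24), and 0.00 with each lineage centred on its own mean. Col-111 overlaps psr-1, so the mRNA value can hold reads of that gene.

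Col-38 had 10.2 to 67.1 22G-RNA counts (median 19.2) in lineage B, 21.8 to 83.5 (median 43.9) in lineage C and 22.6 to 160 (median 96.1) in lineage A, with 50.2, 51.7 and 36.8 in generation 0 of lineages A, B and C. The log2 difference was -2.02 ± 0.32 for B minus A and -1.05 ± 0.32 for C minus A (SE, adjusted p = 0.000240 and 0.0374 by limma), and C minus B was 0.97 ± 0.33 and did not pass (adjusted p = 0.0885). The lineage with the most 22G-RNAs of col-38, A, had the lowest median of its mRNA, 18.1. Lineage B had the fewest 22G-RNAs, but the highest median of the mRNA was that of lineage C, so the order was not inverse throughout. The r between the 2 was -0.29 over the 31 libraries (rho = -0.27) and 0.15 with each lineage centred on its own mean.

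**Figure D5:**
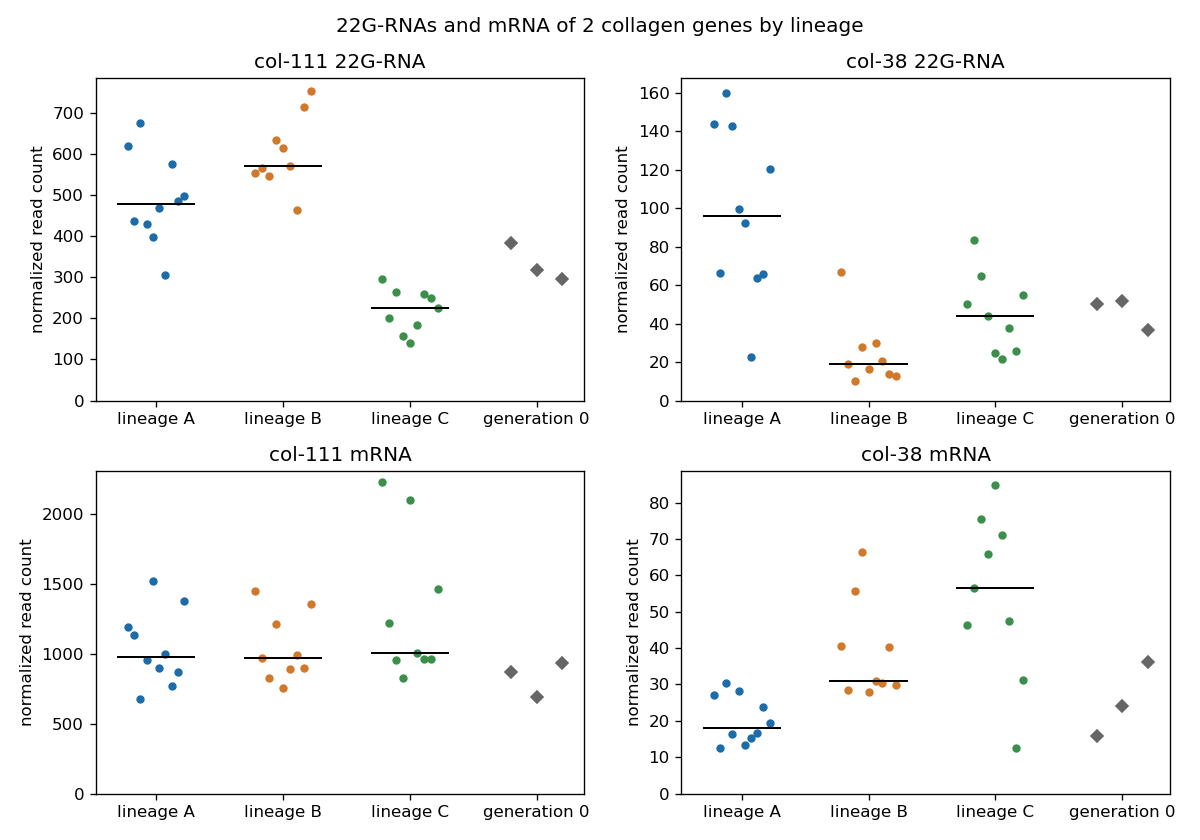
Normalized counts of 22G-RNAs (top) and mRNA (bottom) of col-111 (left) and col-38 (right). Each point is 1 later library of lineage A, B or C, placed in order of generation within its lineage, the bars are medians, and the diamonds are the 3 generation 0 libraries. For col-111 the 22G-RNA medians are 477, 570 and 225 for A, B and C in turn, and the lineage C points do not overlap the others.

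These were 2 of 8 collagen genes tested. Over all genes 513 of 6180, or 8.3%, differed between lineages in their 22G-RNAs. Without lineage A generation 4, the shallowest library, the same 2 genes passed, with adjusted p up to 2.60e-08 for col-111 and 0.000293 for col-38 over the alternatives tried.

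Between later generations and generation 0 no collagen gene passed for 22G-RNAs: 0 of 8 by limma, edgeR and DESeq2, and 1 of 8 (539 of all 6180) at an unadjusted p under 0.05. Over all genes 0.922% were higher and 0.307% lower. That 1 gene was col-97, with 18.97 to 191 counts (median 42.8) in later generations, against 10.8, 21.9 and 24.98 in generation 0, a log2 difference of 1.19 ± 0.37 (SE, adjusted p = 0.137 by limma). For the slope on generation 0 of 8 passed by the same 3 tools, 2 of 8 (415 of all 6180) had an unadjusted p under 0.05 and 0.291% of all genes passed.

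No element near a collagen gene passed a test of accessibility by limma or edgeR. The 213 elements had a median of 126 normalized ATAC-seq counts, against 118 over all 31618. Between later generations and generation 0 limma called 0 of 213 and 0% of all elements. Of the 213, 40 had an unadjusted p under 0.05, as did 3587 of all 31498 elements tested. EdgeR called 0, and DESeq2 called 3 of the 213, all lower, and 344 of all 31498, of which 157 were higher and 187 lower. The smallest p belonged to an element 110 bases inside a transcript start of sqt-3. It had 80.4 to 235 counts (median 171) in later generations, against 278, 329 and 176 in generation 0. The log2 difference was -0.64 ± 0.17 (SE, adjusted p = 0.141 by limma), while sqt-3 mRNA was higher. Over 30 libraries its r with sqt-3 mRNA was -0.17, and the other sqt-3 elements had r of 0.0088 to 0.21. The median difference was -0.05 over the 213 elements and -0.02 over all. The slope on generation passed for 1 element of all, or 0.00317%, and for 0 of the 213 by limma, edgeR and DESeq2, with 7 of them and 1706 of all at an unadjusted p under 0.05. Between lineages all 3 tools called 0 elements, with 8 of the 213 and 1665 of all at an unadjusted p under 0.05 by limma.

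The 127 elements within 500 bases of a collagen start summed to 17516 to 21040 counts (median 18964) in later generations, against 21112, 20660 and 18874 in generation 0. Over the 30 libraries with both assays this sum had an r of -0.09 (rho = -0.03) with the summed collagen mRNA. For 102 such elements of tested genes the r of an element with its gene's mRNA ranged from -0.51 to 0.55, with a median of -0.0042. The summed accessibility thus did not follow the library-to-library course of the collagen mRNAs.

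The study marked single values that left the generation 0 level by a Z-score over 2.25, counted over each gene and later library. For collagen mRNA 187 of 4732 values were past it upward and 85 downward, while over all genes 2.64% of values were past it upward and 2.11% downward. Of these 272 values 108, in 27 genes, came from the 130 genes tested. Col-152 was past it in 18 of 28 later libraries and col-78 in 15, with runs of up to 9 and 10 sampled generations in 1 lineage. Each value was set against the 1 generation 0 library of its own lineage, so a run in 1 lineage rests on 1 such library. With the mean of the 3 generation 0 libraries as reference, the longest run of a collagen gene was 7 sampled generations, against 10. Sqt-3, dpy-17 and col-180 never passed. A run of at least 2 sampled generations was found for 27 of the 169 genes and for 3703 of all 27790. For 22G-RNAs 32 of 476 values were past it upward and 12 downward, against 1.9% and 1.97% of all values, and the most, 11, belonged to col-99, whose mean was 3.60 counts. For accessibility 48 of 5964 values were past it upward and 122 downward, against 1.64% and 1.41%.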

How the data were processed

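Each assay was compared over 31 libraries. Per the deposited files and the study's methods, Bowtie2 placed the mRNA and chromatin reads, which the authors counted over gene spans or regulatory elements using BEDTools without strand. They matched small RNA reads to the genome with Bowtie, and counted 22G-RNAs antisense to coding genes. The authors divided each library's read counts by its DESeq2 size factor, so the deposited values are a normalized signal. In the RNA-seq and ATAC-seq tables a value of 1 stands for a count of 0 and was read as 0. Multiplying by the recovered size factor gave whole reads for 100% of values within 0.001 read.

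The genes and lists were chosen with earlier results of these data known. Groups came from the labels. Features averaging 10 or more normalized counts were tested on log2(value + 1) with limma 3.58.1 (R 4.3.3), with lineage as a block for later generations against generation 0 and for the slope on generation, and p-values were Benjamini-Hochberg adjusted over all features tested, with a threshold of 0.05. EdgeR 4.0.16 and DESeq2 1.42.0 on the recovered reads called 6609 and 7004 of 16714 genes in the first comparison, against 6626 by limma. Other alternatives were other pseudocounts and filters, TMM scaling and libraries left out. Named genes were the 13 shape-named genes, up to 5 called collagen genes each way with the largest difference or slope per comparison, the 5 highest per kilobase, the 10 with the most 22G-RNAs, the 10 other genes closest to the summed collagen level, and list genes. Others were chosen after their values were seen. Z-scores used a cut-off of 2.25. Scripts were tested on simulated data. Positions are from the Ensembl 115 annotation of WBcel235.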

Additional observations from a re-analysis of the deposited data

Results flagged for a closer look

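Within each lineage, 44 measures (mRNA or 22G-RNA of a named collagen gene, or the summed collagen mRNA) were examined for an outlying library. Of 132 groups 13 had one. Chance gives about 1 in 20. The value given is the gap to the nearest library as a share of the range over the lineage.

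In mRNA, dpy-17 stood high in lineage A generation 4 (169564 counts, next 139263, gap 0.509), and col-74 stood low in lineage C generation 2 (38216, next 53989, gap 0.559). Bli-1 stood high in lineage C generation 8 (134, next 90.0, gap 0.508). Low-count genes with a low library were bli-2 in lineage A generation 4 (6.22, next 15.4, gap 0.492), col-45 in lineage B generation 12 (0, next 3.97, gap 0.535), col-60 in lineage A generation 2 (6.24, next 18.5, gap 0.503) and lineage C generation 10 (3.11, next 15.5, gap 0.574), and col-78 in lineage B generation 2 (0, next 8.64, gap 0.613).

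In 22G-RNAs, col-97 and col-38 both stood apart in lineage A generation 14, col-97 high (191, next 67.1, gap 0.478) and col-38 low (22.6, next 63.996, gap 0.527). Col-45 stood high in lineage A generation 10 (219, next 101, gap 0.479) and col-154 in lineage C generation 6 (48.8, next 19.2, gap 0.501). Col-187 stood low in lineage C generation 2 (0, next 4.36, gap 0.661).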

How the results depend on the processing

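Between later generations and generation 0, 39 collagen mRNAs were called, and 20 were genes with no overlapping gene. Leaving out the lineage A, B or C library of generation 0 gave 30, 19 and 27 calls. Of these, 28, 19 and 26 were among the 39. Among called genes picked by the rules for named genes, no difference from generation 0 and no slope reversed under the alternatives run. The direction of the other calls was not checked gene by gene. For the slope on generation, 1 collagen gene by limma, DESeq2 gave 2, and leaving out lineage A, lineage B or generation 2 gave 0 each. DESeq2 called 1 collagen mRNA between lineages and 3 elements against generation 0, where limma called 0. A Z-score cut-off of 3 left 99 of 272 mRNA values. For accessibility 32 of 170 remained at that cut-off and 301 passed a cut-off of 2. For 22G-RNAs 10 to 58 of the values passed, with 44 in the main count.

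Over all features, leaving out the generation 0 library of lineage C gave 3221 mRNAs against 6626. The ranges over alternatives were 0 to 146 for the mRNA slope (4 by limma), 0 to 344 for accessibility against generation 0 (0), 0 to 36 for its slope (1), 10 to 170 for 22G-RNAs against generation 0 (76) and 3 to 34 for their slope (18).

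Without the lineage as a replicate block 38 collagen mRNAs were called against generation 0, and 1 for the slope. Alternatives without lineage A generation 4, lineage C generation 2 or generation 0 of lineage C together with generation 2, and those restricted to genes with no overlapping gene, were chosen after seeing the data. Small RNA depth limits the 22G-RNA results, since 9 of 17 collagen genes had a mean below 10.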
